A study of Rattus norvegicus with 12 samples.

Results

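The epithelial sodium channel and the mineralocorticoid pathway that sets its activity were followed through 10 genes: the channel subunits Scnn1a, Scnn1b and Scnn1g, the channel-activating protease Prss8, the kinase Sgk1, the ubiquitin ligase Nedd4l, the steroid-induced regulator Tsc22d3, the receptors Nr3c1 and Nr3c2, and the enzyme Hsd11b2. The genes were chosen by name for their known roles, with earlier results of these data known. Of these genes 10 of 10 were measured, each by 1 probe set, among 14506 genes tested. They were read in primary cultures of inner medullary collecting duct (IMCD) cells, which line the final segment of the nephron, from kidneys of male Sprague-Dawley rats aged 7 weeks. The cultures of every group were first held for 4 days in medium of 640 mOsm/kg. They then either stayed at 640 mOsm/kg or were moved to 300 mOsm/kg, and RNA was taken 24 or 48 h later. Each of the 4 groups had 3 samples, each read on 1 Affymetrix Rat Gene 1.0 ST array, 12 arrays in all. Nothing in the labels tells whether a group's samples are separate cultures or animals. The p-values thus speak to the spread between these samples alone, which may be technical.

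As background, the epithelial sodium channel, ENaC, lets sodium enter principal cells of the collecting duct from the urine, and the sodium pump moves it on to the blood side. Aldosterone binds the mineralocorticoid receptor (Nr3c2), which raises transcription of Sgk1 and Tsc22d3. The kinase Sgk1 phosphorylates Nedd4-2, the product of Nedd4l, which otherwise marks the channel for removal from the membrane. The enzyme Hsd11b2 inactivates glucocorticoids that would also occupy the receptor. Sgk1 was described early on as a transcript that responds to cell volume as well as to steroids.

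Of the 10 genes, 1 (Sgk1) fell at 300 mOsm/kg for the mean of both times on the values as deposited, where 0.869% of all genes were called lower. Tsc22d3 fell too once each array was centred on its median, where 2.1% of all genes were called lower. The 3 channel subunits, the protease, Nedd4l, both receptors and Hsd11b2 passed the test at neither time on either scale. The promoters of Sgk1 and Tsc22d3 are shown because these are the members whose RNA differed between osmolalities. The windows are the 250 bases before a transcription start, from RefSeq on build GRCr8, and 6 of the 10 members (Scnn1b, Scnn1g, Sgk1, Nedd4l, Tsc22d3 and Nr3c1) had 11 windows among 33469 in all. Both genes have 3 listed starts, the first of which is printed, and the probe set does not tell which start gave the signal. Capitals mark the motifs found on the printed strand. The Sgk1 window lies at chr1:24804832-24805081 on the minus strand and the Tsc22d3 window at chrX:109010035-109010284, also on the minus strand.
Sgk1: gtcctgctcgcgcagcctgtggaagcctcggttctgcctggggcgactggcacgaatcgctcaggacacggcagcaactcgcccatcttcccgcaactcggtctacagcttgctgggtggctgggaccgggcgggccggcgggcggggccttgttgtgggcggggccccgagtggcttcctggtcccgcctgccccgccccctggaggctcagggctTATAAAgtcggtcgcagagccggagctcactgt
Tsc22d3: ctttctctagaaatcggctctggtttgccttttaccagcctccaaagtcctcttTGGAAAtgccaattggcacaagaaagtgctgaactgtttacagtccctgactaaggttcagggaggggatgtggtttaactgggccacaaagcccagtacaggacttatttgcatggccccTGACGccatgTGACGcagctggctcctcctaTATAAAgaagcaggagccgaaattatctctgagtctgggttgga
The Sgk1 window holds a TATA box (TATAAA) 33 bases before the start. The Tsc22d3 window holds a TATA box 44 bases before the start, the cAMP response motif TGACG at 75 and 65 bases, and TGGAAA, the core bound by NFAT factors including the tonicity-responsive Nfat5, at 196 bases. Among the other starts of Sgk1, the second has TGGAAA 237 bases before it and the third has TATAAA 55 bases before it. The letters were searched on both strands. TATAAA was present in 12.9% of all windows, TGACG in 18.2% and TGGAAA in 19.7%. TGTTCT, the core of a corticosteroid receptor site, was present in 17.5% of all windows and in 0 of the 11 member windows. A match is a description of the letters and not a binding site, and no match says only that the letters are not in the window.

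The arrays did not share one scale, which bears on every value below. Array medians over the genes tested were 6.81 to 6.97 on the log2 scale for the 48 h samples. Of the 24 h samples, 4 had medians of 7.43 to 7.58, while 300 mOsm/kg replicate 1 had 6.89 and 640 mOsm/kg replicate 3 had 6.90. Changes with osmolality are given on the deposited log2 values, used as they were, so these scale differences remain in them. The value after subtracting each array's median (median-centred) is added where it changes the call and for some other members. Changes over time are given on median-centred values. Correlations between arrays ran from 0.976 to 0.995 over the genes, and 0 pairs were identical. The 13 principal cell markers were brighter than 56.7 to 99.9% of genes, while the 7 markers of intercalated cells lay at 11.4 to 31.99% and the 4 of the proximal tubule at 23.9 to 36.9%. The 5 fibroblast markers ranged from 40.8 to 88.8%. No detection calls were used, so a lower limit of detection is not known.

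Sgk1, the kinase that relays the steroid signal to the channel, was among the brightest probe sets, brighter than 99.4% of genes. On the deposited scale its log2 values at 24 h were 12.68, 12.76 and 12.55 at 640 mOsm/kg (mean 12.66 ± 0.108, SD, n = 3) and 11.82, 12.29 and 12.28 at 300 mOsm/kg (12.13 ± 0.267). At 48 h they were 12.65, 12.60 and 12.83 at 640 mOsm/kg (12.69 ± 0.125) and 11.96, 11.63 and 11.87 at 300 mOsm/kg (11.82 ± 0.168). Every array at 300 mOsm/kg lay below every array at 640 mOsm/kg of the same time, so the groups did not overlap at 24 h or at 48 h. Sgk1 was the only member separated at 24 h on the deposited scale, where 2.69% of all genes were separated in this direction. At 48 h 3 members were separated downward, against 6.62% of genes.

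On the deposited scale the change in Sgk1 was -0.53 ± 0.194 (standard error) at 24 h (limma adjusted p = 1.00) and -0.88 ± 0.194 at 48 h (adjusted p = 0.0589), a level 1.83-fold lower at 48 h. The mean of both times was -0.71 ± 0.137 (adjusted p = 0.0163), 1.63-fold lower, and this passed the threshold. On the median-centred scale the change at 48 h passed as well, at -0.87 ± 0.167 (adjusted p = 0.0104). The test of the difference between times, 48 h minus 24 h, gave -0.34 ± 0.274 (adjusted p = 1.00), so a larger change at 48 h was not shown. The call on the mean of both times was lost on the deposited scale without 640 mOsm/kg replicate 3 at 48 h (adjusted p = 0.0554), 300 mOsm/kg replicate 2 at 48 h (0.0644), 300 mOsm/kg replicate 3 at 48 h (0.0520) or 640 mOsm/kg replicate 1 at 24 h (0.0529). On the median-centred scale it held without any 1 of the 12 arrays, with adjusted p up to 0.00887, while the 48 h call was lost without 640 mOsm/kg replicate 1 or 300 mOsm/kg replicate 2 at 48 h (adjusted p up to 0.0722).

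**Figure D1:**
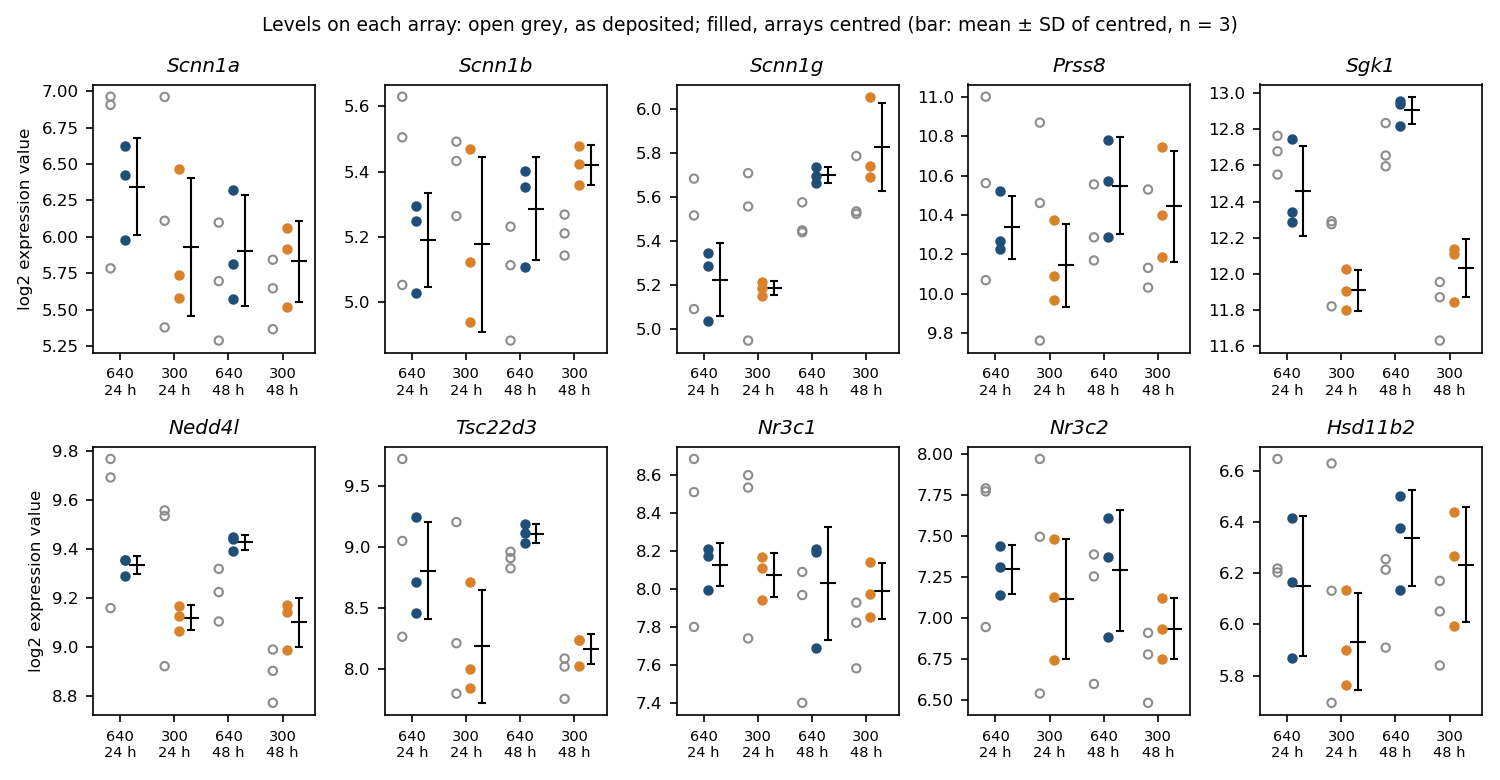
Log2 expression value (vertical axes) of each of the 10 genes on each array, by osmolality in mOsm/kg and time. Open grey circles are deposited values, filled circles are median-centred values and bars are the mean ± SD of the median-centred values, n = 3 arrays. The filled Sgk1 circles at 300 mOsm/kg lie below those at 640 mOsm/kg at both times, and the Scnn1g circles at 48 h lie above those at 24 h.

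Among the pair of 24 h arrays with low medians the Sgk1 difference, 300 minus 640 mOsm/kg, was -0.73, and among the other 4 arrays at 24 h it was -0.44. The direction was therefore the same within each set, and these values have no test. On the median-centred scale the order of the group means was 12.91 ± 0.0743 at 640 mOsm/kg and 48 h, 12.46 ± 0.251 at 640 mOsm/kg and 24 h, 12.03 ± 0.161 at 300 mOsm/kg and 48 h, and 11.91 ± 0.113 at 300 mOsm/kg and 24 h. Neighbours in that order did not overlap except the pair at 300 mOsm/kg, which overlapped. The change in Sgk1 from 24 to 48 h at 640 mOsm/kg on that scale was 0.45 ± 0.167 (adjusted p = 0.585) and did not pass. On the deposited values, whose scale differs between the times, that change was 0.03 ± 0.194 (limma adjusted p = 0.897) and these groups overlapped. The order of the 640 mOsm/kg groups over time thus depended on the scaling.

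Tsc22d3, the glucocorticoid-induced leucine zipper, is a target of both steroid receptors that limits removal of the channel. Its deposited log2 values at 48 h were 8.82, 8.96 and 8.91 at 640 mOsm/kg (mean 8.90 ± 0.0687, n = 3) and 8.08, 8.02 and 7.75 at 300 mOsm/kg (7.95 ± 0.175). The groups were separated at 48 h by more than their own spread. At 24 h the values were 9.05, 9.72 and 8.26 at 640 mOsm/kg and 7.80, 9.20 and 8.21 at 300 mOsm/kg. These overlapped, and in each group the array with the low median held the lowest Tsc22d3 value.

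On the deposited scale the change in Tsc22d3 was -0.61 ± 0.355 at 24 h (adjusted p = 1.00) and -0.95 ± 0.355 at 48 h (adjusted p = 0.647), and the mean of both times was -0.78 ± 0.251 (adjusted p = 0.256). None of these passed in the fit of all 12 arrays, in which both times share a standard error. Fitted on the 48 h groups alone, the deposited change at 48 h was -0.95 ± 0.148 (limma adjusted p = 0.0173). On the median-centred scale the mean of both times was -0.78 ± 0.164 (adjusted p = 0.0124), a level 1.72-fold lower, and it passed, also without any 1 of the 12 arrays (adjusted p up to 0.0439). At 48 h the median-centred change was -0.94 ± 0.232 (adjusted p = 0.0555). The size of the change was thus nearly the same on both scales and its standard error was smaller after centring. The difference between the low-median pair at 24 h was -0.47 and that among the other 4 arrays was -0.68.

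Nedd4l encodes the ligase that takes the channel from the membrane and is a known substrate of Sgk1. Its deposited values at 48 h were 9.11, 9.23 and 9.32 at 640 mOsm/kg (mean 9.22 ± 0.108, n = 3) and 8.99, 8.77 and 8.90 at 300 mOsm/kg (8.89 ± 0.110). Every array at 300 mOsm/kg was below every array at 640 mOsm/kg at 48 h, while at 24 h the deposited values ran from 9.16 to 9.77 at 640 mOsm/kg and from 8.92 to 9.56 at 300 mOsm/kg and overlapped. After median-centring the 24 h values were 9.36, 9.29 and 9.36 against 9.13, 9.07 and 9.17, which did not overlap. On that scale 3 of the 10 members were separated downward at 48 h (7.02% of all genes were) and 2 at 24 h (4.86% of all genes).

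The deposited change in Nedd4l was -0.20 ± 0.224 at 24 h and -0.33 ± 0.224 at 48 h, with adjusted p = 1.00 at each. Its mean over both times was -0.26 ± 0.158 (adjusted p = 1.00) on the deposited scale and did not pass on the median-centred scale either (adjusted p = 0.214). The median-centred change at 48 h was -0.33 ± 0.140 (95% interval -0.62 to -0.03, limma adjusted p = 0.497). Over the 12 median-centred arrays Nedd4l and Sgk1 had a Pearson correlation of 0.93. The kinase passed the threshold and its substrate did not, and the difference between their changes was not tested.

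**Figure D2:**
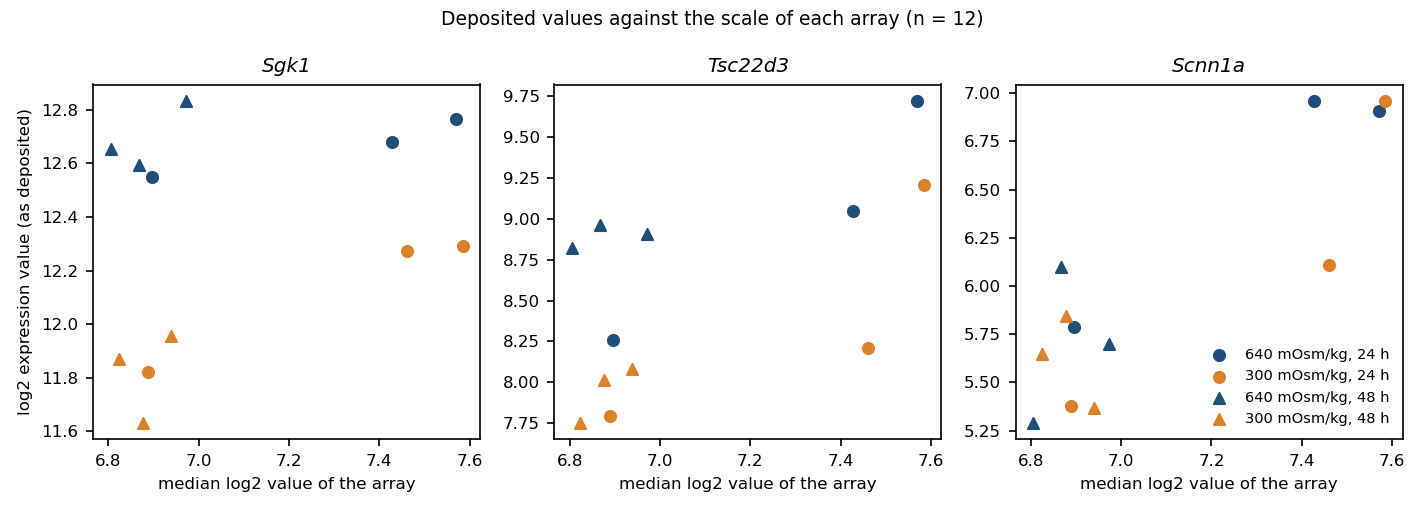
Deposited log2 value of Sgk1, Tsc22d3 and Scnn1a (vertical axes) against the median log2 value of the same array (horizontal axes) for the 12 arrays, coloured by osmolality, circles for 24 h and triangles for 48 h. The 4 arrays at 24 h with medians of 7.43 to 7.58 stand to the right, and at any median the Sgk1 values at 300 mOsm/kg are below those at 640 mOsm/kg.

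The channel itself showed no change with osmolality that passed the test. Scnn1a encodes the alpha subunit, which is needed for the channel to reach the membrane and is the one known to be induced by aldosterone in collecting duct. At 24 h the deposited values of Scnn1a were 6.96, 6.91 and 5.79 at 640 mOsm/kg (mean 6.55 ± 0.664, n = 3) and 5.38, 6.96 and 6.11 at 300 mOsm/kg (6.15 ± 0.790). At 48 h they were 5.29, 6.10 and 5.70 at 640 mOsm/kg (5.70 ± 0.404) and 5.37, 5.84 and 5.65 at 300 mOsm/kg (5.62 ± 0.239). The groups overlapped at both times, and the low-median arrays held the lowest values of their groups at 24 h. On the deposited scale the change was -0.40 ± 0.379 at 24 h, with a 95% interval from -1.21 to 0.41, and -0.08 ± 0.379 at 48 h, with an interval from -0.89 to 0.74. After median-centring the Scnn1a intervals were narrower, from -0.97 to 0.14 at 24 h and from -0.63 to 0.48 at 48 h. Both sets of intervals leave changes in either direction possible with 3 arrays per group.

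Scnn1b, the beta subunit, had narrower intervals than Scnn1a. Its probe set was brighter than only 30.2% of genes and no detection calls were used. Whether the intervals bound the RNA level as closely as the signal is not known. On the deposited scale its values at 48 h were 5.11, 4.88 and 5.23 at 640 mOsm/kg and 5.27, 5.14 and 5.21 at 300 mOsm/kg, and its change was 0.13 ± 0.197 with an interval from -0.29 to 0.55. At 24 h the values were 5.63, 5.50 and 5.05 at 640 mOsm/kg and 5.26, 5.43 and 5.49 at 300 mOsm/kg. The means at 24 h were equal at 5.40, and the interval of the change ran from -0.42 to 0.42. Its groups overlapped at both times.

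Scnn1g, the gamma subunit, likewise overlapped between osmolalities. At 24 h the deposited values of Scnn1g were 5.68, 5.52 and 5.09 at 640 mOsm/kg and 4.95, 5.71 and 5.56 at 300 mOsm/kg. At 48 h they were 5.45, 5.44 and 5.57 at 640 mOsm/kg and 5.53, 5.52 and 5.78 at 300 mOsm/kg. The change was -0.03 ± 0.228 at 24 h (interval -0.51 to 0.46) and 0.13 ± 0.228 at 48 h (interval -0.36 to 0.61). The signs of the 24 h estimates of Scnn1g and Scnn1b depended on the scaling. The beta and gamma probe sets were brighter than 30.2% and 33.0% of genes, both in the range of the proximal tubule markers and the beta also in that of the intercalated markers, and the alpha probe set was brighter than 39.1%. Brightness differs between probe sets for reasons other than RNA amount, so the subunits are not ranked against each other.

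The widest difference of a channel subunit was over time, on median-centred values. Scnn1g values at 24 h were 5.35, 5.04 and 5.29 at 640 mOsm/kg and 5.15, 5.22 and 5.19 at 300 mOsm/kg. At 48 h they were 5.74, 5.66 and 5.70 at 640 mOsm/kg and 5.69, 5.74 and 6.05 at 300 mOsm/kg. All 6 arrays at 48 h were above all 6 at 24 h. The mean levels of the fibroblast and macrophage markers were also higher in every 48 h array than in any 24 h array on that scale. The mean level of the 5 fibroblast markers ran from 7.12 to 7.58 over the 24 h arrays and from 8.14 to 8.68 over the 48 h arrays, and that of the 5 macrophage markers from 5.76 to 5.96 and from 5.98 to 6.48. Their part in the Scnn1g values was not tested. At 640 mOsm/kg 3 members (Scnn1g, Sgk1 and Nedd4l) were separated upward over time, against 4.95% of all genes, and at 300 mOsm/kg 1 was (Scnn1g), against 7.29%. The change from 24 to 48 h was 0.47 ± 0.156 at 640 mOsm/kg (limma adjusted p = 0.515) and 0.64 ± 0.156 at 300 mOsm/kg (adjusted p = 0.132), and it passed at neither osmolality. On the deposited values, whose scale differs between the times, the groups of Scnn1g overlapped at both osmolalities. Those of Sgk1 and Nedd4l at 640 mOsm/kg overlapped as well. Scnn1a differed in the other direction at 640 mOsm/kg, by -0.44 ± 0.261 (adjusted p = 0.883). Over time 0 of the 10 members were called at either osmolality (2 had an unadjusted p under 0.05 at 640 mOsm/kg and 1 at 300 mOsm/kg), against 0.138% of all genes called at 640 mOsm/kg and 0.255% at 300 mOsm/kg.

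Prss8, or prostasin, is a membrane-anchored protease that promotes cleavage of the gamma subunit. Its probe set was brighter than 92.4% of genes. At 48 h Prss8 had deposited values of 10.29, 10.56 and 10.17 at 640 mOsm/kg and 10.03, 10.53 and 10.13 at 300 mOsm/kg, which overlapped. The change was -0.18 ± 0.290 at 24 h and -0.11 ± 0.290 at 48 h (interval -0.73 to 0.51), with adjusted p = 1.00 at each.

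Both receptors were read at levels in the middle of the array. Nr3c2, the mineralocorticoid receptor, was brighter than 50.6% of genes. Deposited values of Nr3c2 at 48 h were 6.60, 7.39 and 7.25 at 640 mOsm/kg (mean 7.08 ± 0.423, n = 3) and 6.78, 6.91 and 6.48 at 300 mOsm/kg (6.72 ± 0.219). The lowest array at 640 mOsm/kg lay within the range at 300 mOsm/kg. The change was -0.17 ± 0.342 at 24 h and -0.36 ± 0.342 at 48 h (interval -1.09 to 0.37, adjusted p = 1.00). Nr3c1, the glucocorticoid receptor, was brighter than 62.1% of genes and differed by -0.04 ± 0.288 at 24 h and -0.04 ± 0.288 at 48 h (interval -0.66 to 0.57). At 48 h the Nr3c1 values as deposited were 7.40, 7.97 and 8.09 at 640 mOsm/kg and 7.82, 7.93 and 7.58 at 300 mOsm/kg, with full overlap. After median-centring the 48 h intervals were narrower, -0.82 to 0.11 for Nr3c2 and -0.41 to 0.33 for Nr3c1.

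Hsd11b2, which protects the mineralocorticoid receptor from glucocorticoids and is a defining enzyme of aldosterone target cells, was brighter than 40.7% of genes. Its deposited values at 48 h were 6.21, 5.91 and 6.25 at 640 mOsm/kg and 5.84, 6.05 and 6.17 at 300 mOsm/kg, and those at 24 h were 6.20, 6.65 and 6.22 against 5.69, 6.63 and 6.13. Both pairs of groups overlapped. The change was -0.20 ± 0.240 at 24 h and -0.11 ± 0.240 at 48 h (interval -0.62 to 0.41), with adjusted p = 1.00 at each.

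**Figure D3:**
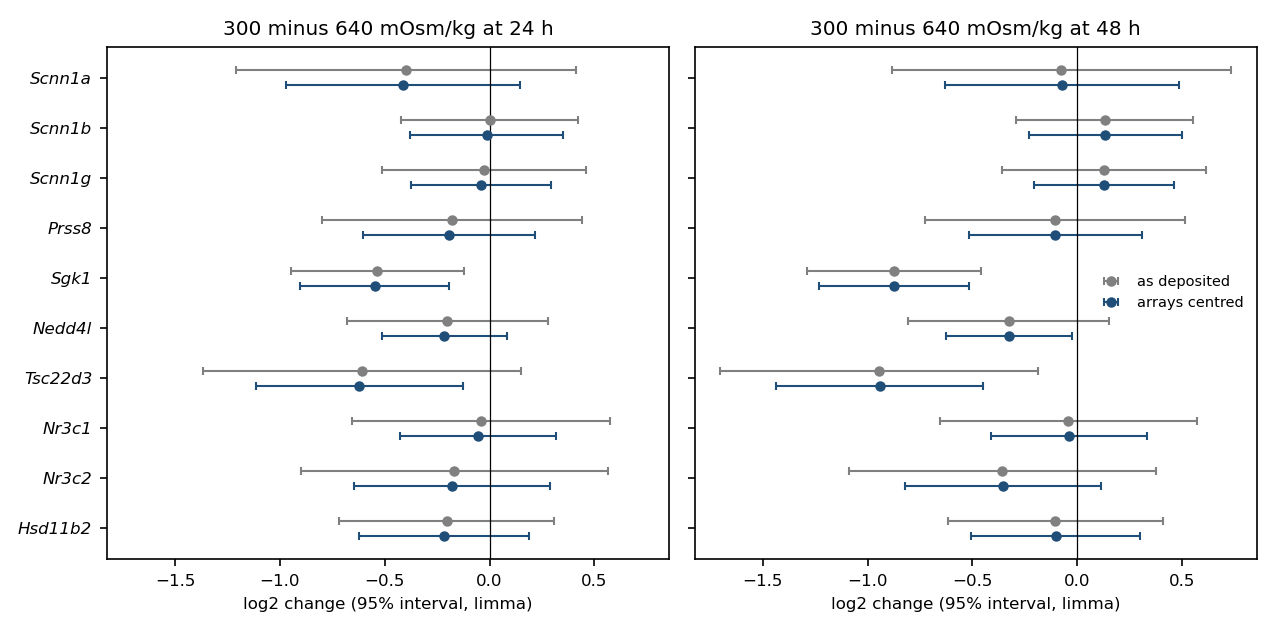
Log2 change, 300 minus 640 mOsm/kg, of each gene at 24 h (left) and 48 h (right) with its 95% interval from limma, grey for deposited and blue for median-centred values, 3 arrays per group. The Sgk1 intervals lie below 0 at both times, and the Tsc22d3 intervals lie below 0 at 48 h. The median-centred intervals of Tsc22d3 at 24 h and of Nedd4l at 48 h also lie below 0. All intervals of the channel subunits include 0.

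Counted together on the deposited scale, 0 of the 10 members were called at 24 h by limma (1 had an unadjusted p under 0.05), where 0.0896% of all genes were called. At 48 h 0 were called (2 with an unadjusted p under 0.05) against 0.717% of genes, and 1, Sgk1, for the mean of both times, where 0.869% of genes were called lower and 1.28% in either direction. On the median-centred scale the counts were 0 at 24 h (0.655% of genes; 2 members with an unadjusted p under 0.05), 1 at 48 h (1.85%) and 2 for the mean (3.43%; 2.1% lower). The signs leaned down, with 9 of 10 estimates negative at 24 h and 8 of 10 at 48 h on the deposited scale, and 10 of 10 and 8 of 10 after centring. Of all genes, 55.7% had a negative estimate at 24 h and 45.8% at 48 h on the deposited scale, and 59.1% and 45.4% after centring. The median member change was -0.19 at 24 h and -0.11 at 48 h, beside -0.02 and 0.02 over all genes. For the difference between times 0 members were called (0 with an unadjusted p under 0.05), and 0% of all genes were. The principal cell markers, 3 of which (Fxyd4, Elf5 and Tfcp2l1) also stand in the pathway lists, moved with osmolality as well. At 24 h 1 of the 13 was called lower and at 48 h 4 were, with a median change of -0.38 and -0.49 on the deposited scale, and their mean level on the median-centred scale ran from 9.54 to 9.73 over the arrays at 300 mOsm/kg and 24 h, 10.21 to 10.38 at 640 mOsm/kg and 24 h, 9.59 to 9.76 at 300 mOsm/kg and 48 h, and 10.59 to 10.75 at 640 mOsm/kg and 48 h. In the lists of markers of other cell types 0 genes were called on the deposited scale at either time. For 4 of these lists the median change was negative at both times. The deposited medians were -0.0885 at 24 h and -0.12 at 48 h for proximal tubule markers, -0.35 and -0.36 for endothelial markers, -0.28 and -0.39 for macrophage markers, and -0.35 and -0.14 for markers of the thick ascending limb and distal convoluted tubule. After centring, 1 endothelial marker, 1 macrophage marker and 1 marker of the thick ascending limb and distal convoluted tubule were called lower at 48 h. Fewer cells of a type and less RNA per cell cannot be told apart in these bulk samples, and the part of such a shift in the Sgk1 and Tsc22d3 values was not tested.

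The genes around the channel were followed in 8 lists of 119 genes, 98 of them measured. For the mean of both times on the deposited scale 4 of the 98 were called, which is 4.08%, beside 1.28% of all genes, and each was lower at 300 mOsm/kg (0.869% of all genes were called lower). After median-centring 10 were called, or 10.2%, of which 8 were lower, beside 3.43% of all genes called and 2.1% called lower. The lists were chosen with earlier results of these data known, so these shares are a description and not a test of the pathway. Among the proteases and inhibitors that act on the channel, 1 of 10 measured fell on the deposited scale, and the list median was -0.08. This was Tmprss2, a membrane serine protease able to activate the channel. Its deposited values at 48 h were 10.30, 10.17 and 10.39 at 640 mOsm/kg and 8.79, 8.20 and 8.56 at 300 mOsm/kg. At 24 h they were 10.59, 10.05 and 9.90 against 8.81, 9.23 and 9.28. The groups did not overlap at either time. At 24 h, however, 0 of the 10 measured genes of this list were called on the deposited scale, and 1 was called lower after centring. The change in Tmprss2 was -1.76 ± 0.231 at 48 h (adjusted p = 0.00125) and -1.42 ± 0.164 over both times (adjusted p = 0.00023), and the latter held without any 1 array. Plau, the urokinase, fell after median-centring (mean of both times -0.76 ± 0.132, adjusted p = 0.00322) and did not pass as deposited (adjusted p = 0.0701).

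The sodium pump list held the gene with the largest change among the called genes of the 8 lists. Fxyd2, the gamma subunit of the pump, fell by 2.04 ± 0.186 over both times on the deposited scale (adjusted p = 4.28e-05). Atp1b1, the beta subunit that brings the pump to the basolateral membrane, had deposited values of 12.20, 12.10 and 12.50 at 640 mOsm/kg and 11.57, 10.88 and 11.30 at 300 mOsm/kg at 48 h. The arrays did not overlap, and the change over both times was -0.79 ± 0.159 (adjusted p = 0.0211). That call was lost without replicate 1 or 3 at 640 mOsm/kg and 48 h, replicate 2 or 3 at 300 mOsm/kg and 48 h, replicate 1 at 640 mOsm/kg and 24 h or replicate 3 at 300 mOsm/kg and 24 h (adjusted p up to 0.0732), and on the median-centred scale it held without any 1 array. Atp1b3, another beta subunit, fell after centring only (-0.53 ± 0.121, adjusted p = 0.0214; 8 of 12 fits without 1 array kept it). The chloride channel Cftr rose after centring (0.69 ± 0.170, adjusted p = 0.0345; 5 of 12 fits kept it). In this list 2 of 14 measured genes fell and 0 rose on the deposited scale, with a median of -0.10.

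Of the corticosteroid targets other than the members, 22 of 25 were measured, and for the mean of both times 1 fell on the deposited scale, with a list median of -0.09. This was the metallothionein Mt2A (-0.68 ± 0.142, adjusted p = 0.0244), whose call was lost after centring (adjusted p = 0.0750). It was also lost on the deposited scale without replicate 1 or 3 at 640 mOsm/kg and 48 h, replicate 2 at 300 mOsm/kg and 48 h, replicate 1 at 640 mOsm/kg and 24 h, or replicate 2 or 3 at 300 mOsm/kg and 24 h (adjusted p up to 0.0814). After centring, Cdkn1c, a cell cycle inhibitor, fell by 0.75 ± 0.117 (adjusted p = 0.00131) and Cnksr3, a scaffold that joins Sgk1 to the channel, fell by 0.70 ± 0.112 (adjusted p = 0.00165). Edn1, the peptide endothelin that inhibits sodium uptake in collecting duct, rose. Its median-centred values at 48 h were 8.94, 9.29 and 9.11 at 640 mOsm/kg and 9.99, 10.21 and 9.92 at 300 mOsm/kg, and its change over both times was 0.63 ± 0.132 (adjusted p = 0.0121). None of these 3 passed on the deposited scale, and on the median-centred scale each held without any 1 of the 12 arrays. Pdk4, a brake on pyruvate use, fell at 48 h after centring only (-0.71 ± 0.167, adjusted p = 0.0418), and 4 of 12 fits without 1 array kept that call. The targets therefore differed in both directions after centring.

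Upstream and downstream of the kinase, 0 of 11 measured genes of the Sgk1 cascade and 0 of 7 of the WNK and SPAK cascade were called on either scale for the mean of both times, with deposited medians of -0.07 and -0.11. Ndrg1, a widely used substrate of Sgk1, stood at -0.50 ± 0.332 at 48 h on the deposited scale (adjusted p = 1.00). Its RNA level says nothing of its phosphorylation. The other Sgk1 cascade genes with the smallest p over both times were the phosphatase Inpp5k (-0.28 ± 0.191) and the kinase Mtor (-0.14 ± 0.191), and those of the other cascade were Wnk4 (-0.26 ± 0.154), Stk39, which encodes SPAK (-0.25 ± 0.179), and Oxsr1 (-0.20 ± 0.198). Among 16 genes of channel ubiquitination and trafficking 0 were called on the deposited scale (median -0.05) and 1, Cnksr3, after centring. Of 13 chaperones, cofactors and enzymes of the steroid receptors 0 were called on the deposited scale (median -0.06). Hsd11b1, which regenerates active glucocorticoid, fell at 48 h after centring only (-0.83 ± 0.195, adjusted p = 0.0401), and 6 of 12 fits without 1 array kept that call. Of 9 regulators of channel gene transcription 0 were called on the deposited scale (median -0.09), and the epithelial factor Elf5 fell after centring only (-1.27 ± 0.330, adjusted p = 0.0476; 4 of 12 fits kept it).

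**Figure D4:**
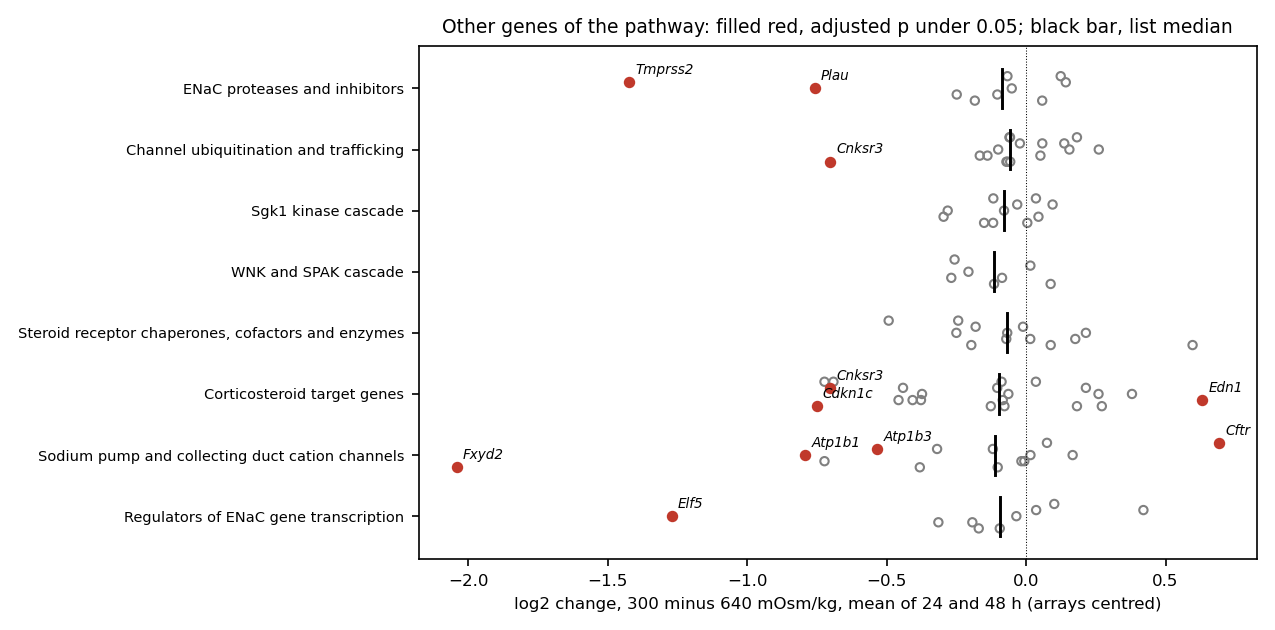
Log2 change, 300 minus 640 mOsm/kg as the mean of 24 and 48 h on median-centred values (horizontal axis), of 98 genes in 8 lists (rows, with points offset vertically for legibility). Filled red points have a limma adjusted p under 0.05 and are named, black bars are list medians, and Cnksr3 stands in 2 lists. Fxyd2 and Tmprss2 lie farthest to the left, Edn1 and Cftr are the named points on the right, and the list medians lie close to 0.

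The genes whose pattern over the 12 median-centred arrays was most like that of a member were ranked by Pearson correlation, as a description over 12 arrays that fall into 4 groups. For Sgk1 these were the forkhead factor Foxq1 (0.983), the prostaglandin synthase Ptgs1 (0.971) and the proton pump subunit Atp6v1h (0.969). On the deposited scale the difference at 48 h, 300 minus 640 mOsm/kg, was -1.29 for Ptgs1 and -0.56 for Atp6v1h. The genes nearest to Scnn1a were Socs2 (0.892), Fam110c (0.886) and Tsc2 (0.877). Those nearest to Scnn1b were B3gat3 (0.950), Urgcp (0.931) and Bhlhe41 (0.926), and those nearest to Scnn1g were Mpeg1 (0.938), Fgg (0.932) and Gpc3 (0.930). The 3 channel subunits shared none of these 3 nearest genes.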

How the data were processed

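Total RNA of 12 samples of cultured cells was read on Affymetrix Rat Gene 1.0 ST arrays. The authors deposited log2 values per probe set, made by RMA with Affymetrix Power Tools per the submitters' processing notes. The versions are not given in the sources used here. Groups came from sample titles, since the short codes in the descriptions give other osmolalities for 2 groups. The table has 27596 probe sets, and 15310 of them carry a single gene symbol, 323 carry more than 1 and 11963 are not listed. For each gene the brightest probe set was kept, which left 14506 genes.

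Changes were tested with limma 3.58.1 in R 4.3.3, 1 mean per group over all 12 arrays, and called where the p adjusted over all genes by Benjamini and Hochberg was under 0.05. Errors of levels are SDs and errors of changes are standard errors. Centring subtracts each array's median and adds back the mean of the medians. The members, lists, tests and naming rules were chosen with earlier results of these data known. Named from each list were genes called on either scale at either time or for the mean, or else the 3 with the smallest p. Nearest genes were the 3 with the highest Pearson correlation, leaving out members and uncharacterised loci. The fit was tested on simulated data with independent noise. That simulation had no differences in array scale and no correlated samples, so it does not cover these features of the real arrays. Alternatives were other scalings, filters, weights, blocks and left-out arrays. Chosen after seeing the data were the block on centred arrays, centring without both low-median arrays and leaving out arrays after centring.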

Additional observations from a re-analysis of the deposited data

How the results depend on the processing

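Of the 10 members, 0 were called at 24 h under every alternative run. At 48 h, where 0 were called on the deposited values, 1 was called (Sgk1) with quantile normalization, with cyclic loess, with centred arrays, with trend and robust settings and without both 24 h arrays with low medians. At 48 h 2 were called (with Tsc22d3) with array weights and with only the groups compared, and 2 with each of both added settings, the replicate block on centred arrays and centring without both low-median arrays. For the mean of both times, where 1 was called, 2 were called with quantile normalization, cyclic loess, centred arrays, array weights, without both low-median arrays and with each of both added settings. With 1 array left out, the calls differed between the scales. At 48 h Sgk1 was called in 2 of 12 fits on deposited values and 10 of 12 on centred ones, and Tsc22d3 in 0 and 3. For the mean Sgk1 was called in 8 of 12 fits on deposited values and 12 of 12 on centred ones, and Tsc22d3 in 2 and 12. Over time array weights called 2 members at 640 mOsm/kg and 2 at 300 mOsm/kg, with 986 and 1907 genes called in all, against 0 members and 20 and 37 genes without weights. The cause of these differences was not tested. Replicate numbers did not pair the samples. The correlations of deviations from the group means between same-numbered samples were -0.13, 0.84 and -0.21 at 24 h and -0.23, 0.80 and -0.22 at 48 h. Only replicate 2 correlated best with its own number, while 300 mOsm/kg replicate 1 correlated best with 640 mOsm/kg replicate 3 (0.83 at 24 h and 0.78 at 48 h) and 300 mOsm/kg replicate 3 with 640 mOsm/kg replicate 1 (0.58 and 0.63). The labels give no such pairing, and no fit was made with it. The replicate block within each time joined same-numbered samples, which for replicates 1 and 3 were not those that correlated best. This holds for the added block on centred arrays too. With the block on deposited values, 0 members were called for the mean of both times (Sgk1 limma adjusted p = 0.0587). Over all genes, centring raised the calls from 13 to 95 at 24 h, from 104 to 269 at 48 h and from 185 to 497 for the mean. Array weights gave 139, 415 and 680, quantile normalization 110, 277 and 541, cyclic loess 98, 304 and 571, and the added block on centred arrays 108, 332 and 650. Leaving out both low-median arrays gave 20, 250 and 357 on deposited values, and 17, 303 and 401 on centred ones. With only the groups compared there were 3 at 24 h and 217 at 48 h. Without both low-median arrays 219 genes were called over time at 300 mOsm/kg and 34 at 640 mOsm/kg, on centred values. With all 12 arrays on deposited values, 0 were called over time at each osmolality. Estimates near 0 changed sign. At 24 h Scnn1g was 0.000386 with cyclic loess, 0.0328 without both low-median arrays and 0.00907 with centring added to that. Scnn1b at 24 h was -0.0132 with centred arrays and with the added replicate block on them, -0.0886 with array weights, -0.11 without both low-median arrays and -0.13 with centring added. With array weights Nr3c1 at 24 h was 0.0054, Scnn1a at 48 h was 0.0134 and Scnn1a over time at 300 mOsm/kg was 0.0603. Without a sign change, leaving out 1 array moved the 24 h change of Scnn1a between -0.80 and -0.0151 and that of Tsc22d3 between -1.01 and -0.25. With a sign change it moved the 24 h changes between -0.20 and 0.20 for Scnn1g, -0.17 and 0.12 for Scnn1b, -0.31 and 0.24 for Nr3c1, -0.43 and 0.12 for Prss8, -0.39 and 0.00661 for Nedd4l, -0.49 and 0.23 for Nr3c2, and -0.44 and 0.0241 for Hsd11b2. Those 24 h fits were on deposited values. At 48 h arrays were left out on both scales, and the ranges cover both. The 48 h changes ran between -0.28 and 0.14 for Scnn1a, -0.26 and 0.0247 for Prss8, -0.25 and 0.0935 for Nr3c1, -0.21 and 0.0159 for Hsd11b2, and -0.38 and 0.0161 for Oxsr1. For Hsd11b2 the sign changed on centred values only. The difference between times ranged from -0.69 to 0.0625 for Tsc22d3 and from -0.33 to 0.0644 for Nedd4l, and the change over time at 300 mOsm/kg from -0.27 to 0.17 for Scnn1a. With 3 arrays in each group, the width of the intervals limits what can be seen. For every member the interval of the osmolality change was narrower after centring.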
